A study of Homo sapiens with 7 samples.

Results

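Small nucleolar RNAs (snoRNAs) were examined in Huh-7 cells depleted of IGF2BP1, with the box C/D family (SNORD) set beside the box H/ACA family (SNORA). The members were selected on their measured level: of 790 SNORD and SNORA genes listed, the 177 whose FPKM averaged at least 1 across all 7 libraries were kept, namely 75 of 369 SNORD and 102 of 421 SNORA. FPKM counts fragments relative to gene length and to library size. Of the genes left out, 267 SNORD and 280 SNORA were listed at 0 in every library, and 27 and 39 lay above 0 but under the limit. The lowest member means were 1.11 FPKM (SNORD43) and 1.02 FPKM (SNORA35.2), and the highest means outside were 0.962 and 0.931 FPKM. Since the limit was set on the mean of both groups together, 2 SNORD and 8 SNORA members had a mean under 1 FPKM in siC, and 5 and 3 had one in siIGF2BP1.

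Huh-7 is an established line from a human hepatocellular carcinoma. Cells were transfected with a control siRNA (siC, 3 libraries) or with siRNAs directed against IGF2BP1 (siIGF2BP1, 4 libraries), and total RNA depleted of ribosomal RNA was sequenced 72 h later. No cells left without siRNA were analysed here. The siRNAs against IGF2BP1 were a pool, so that single siRNAs cannot be told apart. Transcripts of hepatocytes were high in each library, for example albumin (ALB) with 1705 to 2042 FPKM and alpha-fetoprotein (AFP) with 2611 to 3450.1 FPKM. IGF2BP1 itself was at 81.9, 80.4 and 84.4 FPKM in siC and at 15.6, 15.7, 16.6 and 15.3 FPKM in siIGF2BP1, in keeping with the labels (log2 change -2.37, SE 0.0558, limma adjusted p = 1.16e-05).

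snoRNAs guide the chemical modification of other RNAs, mostly ribosomal RNA, in the nucleolus. Box C/D snoRNAs carry a C box near the 5′ end and a D box near the 3′ end, bind fibrillarin and direct the methylation of riboses. Box H/ACA snoRNAs fold into a pair of hairpins, end a few bases after the trinucleotide ACA, bind dyskerin and direct pseudouridylation. A few snoRNAs act in the cleavage of the ribosomal RNA precursor instead, among them U3 (the SNORD3 genes), U14 (the SNORD14 genes) and U17 (SNORA73). Most human snoRNAs are cut out of introns of host genes, whereas U3 is transcribed from genes of its own.

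Sequences are shown for the SNORA that passed the test with all libraries and for abundant snoRNAs and U14, and were read from the GENCODE transcripts on GRCh38. Capitals mark the C box (TGATGA) within the first 20 bases, the D box (CTGA) within the last 20 bases, and ACA within the last 8 bases. A C box in these letters was found in 45 of 75 SNORD and 1 of 101 SNORA members, a D box in 64 of 75 and 10 of 101, and ACA in 11 of 75 and 85 of 101. Over all genes listed, the C box was found in 62.3% of 369 SNORD and ACA in 73.7% of 419 SNORA. A match is a description of the letters in these windows. The first 3 sequences are those of the SNORA that passed.
SNORA74D (chr5:139276180-139276320, plus strand, no ACA in the window): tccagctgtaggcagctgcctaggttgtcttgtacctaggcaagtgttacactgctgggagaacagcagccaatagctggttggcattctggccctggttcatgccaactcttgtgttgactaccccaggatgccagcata
SNORA49 (chr12:132031224-132031359, plus strand): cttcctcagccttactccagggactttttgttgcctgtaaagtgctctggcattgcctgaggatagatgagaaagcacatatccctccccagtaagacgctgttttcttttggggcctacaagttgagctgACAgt
SNORA38B (chr17:67740669-67740799, plus strand): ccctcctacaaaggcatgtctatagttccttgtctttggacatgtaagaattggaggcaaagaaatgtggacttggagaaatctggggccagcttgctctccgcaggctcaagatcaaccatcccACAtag
SNORA73B (chr1:28508559-28508762, plus strand): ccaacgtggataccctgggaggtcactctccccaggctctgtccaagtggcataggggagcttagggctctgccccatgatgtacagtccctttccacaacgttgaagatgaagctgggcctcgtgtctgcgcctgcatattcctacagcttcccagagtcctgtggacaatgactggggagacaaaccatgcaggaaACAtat
SNORD3A, bases 1 to 218 of 699 (chr17:19188016-19188233, plus strand): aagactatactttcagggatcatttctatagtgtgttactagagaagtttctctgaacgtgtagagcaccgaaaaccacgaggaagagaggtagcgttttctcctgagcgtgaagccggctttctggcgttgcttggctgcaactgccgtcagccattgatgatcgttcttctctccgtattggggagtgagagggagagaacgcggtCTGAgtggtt
SNORD17 (chr20:17962710-17962946, minus strand): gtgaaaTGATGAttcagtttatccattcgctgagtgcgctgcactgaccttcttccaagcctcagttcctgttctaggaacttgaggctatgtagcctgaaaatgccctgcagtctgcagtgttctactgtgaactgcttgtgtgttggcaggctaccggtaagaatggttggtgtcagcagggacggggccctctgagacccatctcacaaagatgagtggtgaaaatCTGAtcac
SNORD14A (chr11:17074654-17074744, minus strand): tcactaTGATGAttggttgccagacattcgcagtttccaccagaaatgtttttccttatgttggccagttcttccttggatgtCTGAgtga
SNORD14E (chr11:123058077-123058161, minus strand): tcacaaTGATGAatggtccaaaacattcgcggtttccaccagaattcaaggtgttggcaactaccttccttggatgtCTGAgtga
The stretch of SNORD3A is shown because the 218-base gene SNORD3D, a further U3 copy listed at 0 in every library, matched it at 215 of 218 positions. It matched SNORD3B-1 and SNORD3B-2 at 216 positions each and SNORD3C at 214, also over bases 1 to 218. The annotated genes of these 4 copies are longer than this stretch, from 581 to 791 bases.

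Few reads lay on most members. The median member held 10.0 (SNORD) and 10.4 (SNORA) reads per library, 24 and 33 members held a mean of at least 20 reads, and 7 and 11 held at least 100. Another 21 SNORD and 28 SNORA members had a mean under 5 reads. The 4 U3 copies took 96.2% of the reads on SNORD members, and SNORA73B took 67.1% of those on SNORA members. SNORD members were shorter, with a median length of 82 bases against 135. Libraries held 12826550 to 33212205 reads on genes. The deepest were siC replicates 1 and 2 (22525892 and 33212205), and the shallowest siIGF2BP1 replicates 3 and 4 (12948007 and 12826550). The part of depth in the changes of members with few reads was not tested. Among the siC libraries, siC replicate 3 stood apart from both others. It was the highest of the 7 libraries for 80 of 177 members (45.2%), against 28.5% of all 14839 genes tested, so that results are given with and without it.

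The reads on each family as a whole were fewer upon IGF2BP1 depletion, which is given as a description without a test. SNORD members took 5963, 7074 and 10537 RPM (reads per 1000000 of the TMM-scaled library size behind the deposited values) in siC replicates 1 to 3 and 3605, 3520.3, 4349 and 4818 in siIGF2BP1 replicates 1 to 4. The groups did not overlap, and the siIGF2BP1 mean was 51.8% of siC, or 62.5% without siC replicate 3. SNORA members took 618, 669 and 1414 RPM in siC and 389, 347, 405 and 451 in siIGF2BP1. Again the groups did not overlap, and the siIGF2BP1 mean was 44.2% of siC, or 61.9% without siC replicate 3. Without the dominant snoRNAs, the remaining 71 SNORD members were at 265 ± 29.4 RPM (SD, n = 3) in siC and 175 ± 22.3 (SD, n = 4) in siIGF2BP1, and the remaining 101 SNORA members at 259 ± 83.6 and 156 ± 13.8. In bulk RNA, less RNA per cell and fewer cells that contain it cannot be told apart.

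Gene by gene, few members passed the test. The test was limma on log2(FPKM + 0.1) over the 14839 genes averaging at least 1 FPKM, with a threshold of 0.01 on the adjusted p. No SNORD member was lower or higher at the threshold, whereas at an unadjusted p under 0.05, 17 were lower and 2 higher. Of the SNORA members, 3 were lower and 0 higher at the threshold, and 20 and 2, respectively, at p under 0.05 without adjustment. Over all genes tested, 2.28% were lower and 1.65% higher at the threshold, and 14.8% and 11% at an unadjusted p under 0.05. The members higher at an unadjusted p under 0.05 were SNORD19, SNORD63, SNORA73.3 and SNORA36C, each with a mean of at most 10.0 reads. With a threshold of 0.05, 8 SNORD and 8 SNORA members were lower and 0 of either family higher, against 6.81% and 4.74% of all genes.

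The members lower with all 7 libraries were SNORA74D, SNORA49 and SNORA38B. SNORA74D (ENSG00000252213), in the host gene SNHG4 and opposite SIL1 but outside its exons, was at 105, 107 and 129.8 FPKM in siC and at 60.7, 57.1, 68.5 and 69.9 FPKM in siIGF2BP1. Each siIGF2BP1 library lay below each siC library, and 128 to 483 reads stood behind each value (log2 change -0.83, SE 0.110, limma adjusted p = 0.00526). SNORA49 (ENSG00000208892), in EP400, was at 12.1, 11.9 and 16.6 FPKM in siC and at 7.30, 8.23, 7.21 and 6.80 FPKM in siIGF2BP1. The groups did not overlap, with 12 to 52 reads per library (log2 change -0.85, SE 0.131, limma adjusted p = 0.00872). SNORA38B (ENSG00000200394), in NOL11, was at 10.5, 10.7 and 15.5 FPKM in siC and at 5.05, 2.85, 3.46 and 2.94 FPKM in siIGF2BP1. Here too the groups lay apart, with only 5 to 45 reads per library (log2 change -1.76, SE 0.230, limma adjusted p = 0.00491).

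These calls rested on the number and choice of libraries. When each library was left out in turn, SNORA74D and SNORA49 passed in 1 of 7 fits, that without siC replicate 3, and the limma adjusted p ran from 0.0164 to 0.0266 and from 0.0211 to 0.0367 in the other 6 fits. SNORA38B passed without siC replicate 3 and without siIGF2BP1 replicate 1, with a limma adjusted p of 0.0172 to 0.0213 in the other 5. The direction did not change in any of these fits. Without siC replicate 3, 1 SNORD member (SNORD46) and 6 SNORA members (SNORA73B, SNORA74D, SNORA79B, SNORA7B, SNORA49 and SNORA38B) were lower and 0 of either family higher, against 6.67% lower and 3.59% higher of all genes tested. Those 7 also had a p under 0.05 before adjustment with all libraries.

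**Figure D1:**
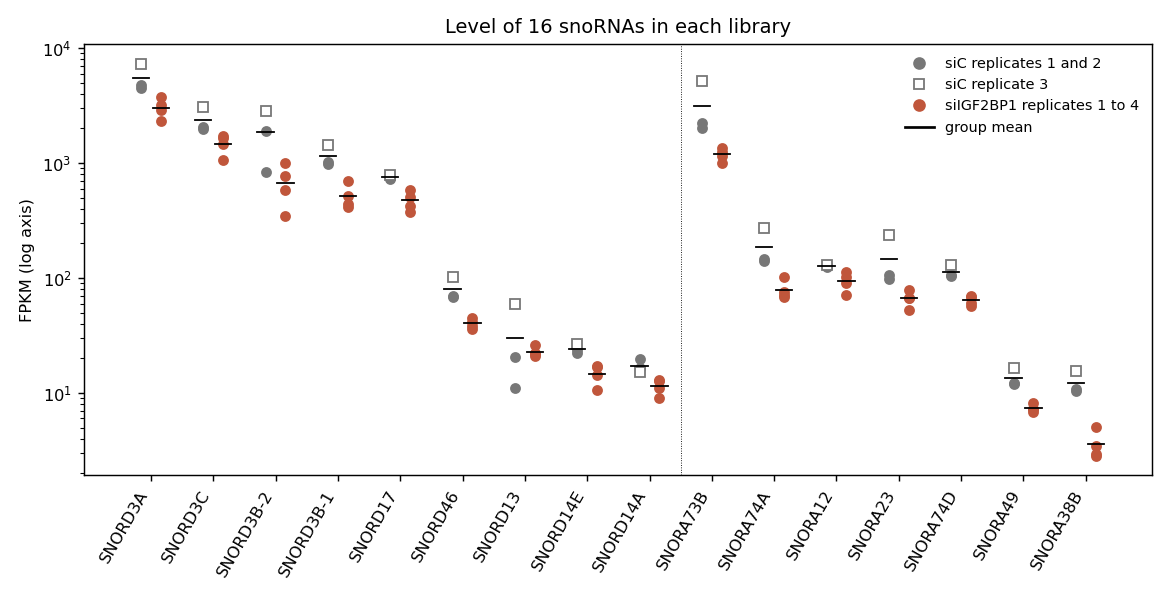
FPKM (log axis) of the 16 snoRNAs described in each of 7 libraries. Points are libraries (grey siC, with replicate 3 as an open square, and red siIGF2BP1) and bars are group means. The groups lie apart for all but SNORD3B-2 and SNORD13, and siC replicate 3 is the highest library for all but SNORD14A.

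U3 was the most abundant snoRNA by FPKM. SNORD3A (ENSG00000263934) was at 4533, 4752 and 7340.5 FPKM in siC and at 2869, 2335, 3170.3 and 3746 FPKM in siIGF2BP1. All siIGF2BP1 libraries lay below all siC libraries, but the change did not pass the threshold (log2 change -0.86, SE 0.238, limma adjusted p = 0.0642, and -0.64 with 0.0480 without siC replicate 3). SNORD3C was at 1965, 2079 and 3062 FPKM in siC and at 1462, 1062, 1641 and 1721 FPKM in siIGF2BP1, likewise apart (log2 change -0.68, SE 0.228, limma adjusted p = 0.110). SNORD3B-1 was at 989, 1024 and 1422 FPKM in siC and at 418, 439, 515 and 702 FPKM in siIGF2BP1.

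For SNORD3B-1 the groups lay apart as well (log2 change -1.15, SE 0.216, limma adjusted p = 0.0173). SNORD3B-2 overlapped between the groups, with 830.0, 1919.9 and 2845 FPKM in siC and 344, 992, 768 and 587 FPKM in siIGF2BP1 (log2 change -1.40, SE 0.496, limma adjusted p = 0.127). The copies share sequence, with a longest identical run of 473 bases between SNORD3A and SNORD3C and of 266 bases between SNORD3B-1 and SNORD3B-2. How reads that match several genes were counted is not given in the sources used here, so the split between copies is uncertain. Summed over the 4 copies, U3 took 7593 ± 2357 RPM (SD, n = 3) in siC and 3898 ± 599 (SD, n = 4) in siIGF2BP1, 51.3% of siC, and 62.2% without siC replicate 3.

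U14 and U17, which also act on the precursor of 18S ribosomal RNA, had lower means too. SNORA73B (ENSG00000200087), the U17 copy in SNHG3, was at 2030.1, 2213 and 5189 FPKM in siC and at 1142, 1000.3, 1256 and 1355 FPKM in siIGF2BP1. The groups lay apart, and siC replicate 3 was far above the other libraries (log2 change -1.27, SE 0.329, limma adjusted p = 0.0509). Without that library the change was smaller and passed the threshold (log2 change -0.84, SE 0.125, limma adjusted p = 0.00592). SNORD14A, a U14 copy in RPS13, was at 16.6, 19.6 and 15.2 FPKM in siC and at 12.7, 12.9, 9.12 and 11.0 FPKM in siIGF2BP1.

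SNORD14A did not pass the threshold, although its groups lay apart (log2 change -0.58, SE 0.145, limma adjusted p = 0.0455). SNORD14E, the U14 copy in HSPA8, was at 22.1, 23.9 and 26.5 FPKM in siC and at 14.3, 10.7, 16.9 and 17.2 FPKM in siIGF2BP1, likewise apart (log2 change -0.73, SE 0.173, limma adjusted p = 0.0389). The 2 U14 copies were identical at 84.7% of the aligned bases of the shorter one and held 11 to 65 reads per library. SNORD13, which guides the acetylation of 18S ribosomal RNA, was at 11.0, 20.4 and 59.4 FPKM in siC and at 26.0, 21.0, 21.8 and 22.2 FPKM in siIGF2BP1. Its siC values spread around those of siIGF2BP1, and its direction turned with 1 library (log2 change -0.07, SE 0.503, limma adjusted p = 0.957, and 0.59 with 0.117 without siC replicate 3).

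Other snoRNAs of the processing list were listed at 0 in all libraries, namely SNORA73A, SNORD118 (U8), SNORD22, SNORD3D, SNORD14B, SNORD14C and SNORD14D. Each of the 7 overlaps an exon of another gene on the same strand in GENCODE, for example TMEM107 for SNORD118. Of all SNORD genes with such an overlap, 131 of 149 (87.9%) were listed at 0, against 267 of all 369 SNORD genes. Of SNORA genes with it, 69 of 90 (76.7%) were, against 280 of all 421. Among genes listed at 0, 49.1% of SNORD and 24.7% of SNORA had such an overlap. Why genes were listed at 0 was not tested. A value of 0 of a gene with such an overlap is not read here as absence of the RNA. SNORA73A, identical to SNORA73B at 94.1% of the aligned bases, cannot be compared with it. The 50 genes of the brain-expressed SNORD115 cluster were all listed at 0, as were 31 of 33 SNORD116 genes. The SNORD116 member, SNORD116.31, lies in MVB12B on chromosome 9 and held few reads (8.22, 6.40 and 6.52 FPKM in siC and 2.83, 2.05, 0 and 0 FPKM in siIGF2BP1, log2 change -3.83, SE 1.34, limma adjusted p = 0.124). MVB12B itself was lower at the threshold (log2 change -0.65, limma adjusted p = 0.00472).

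The remaining members described had lower means in siIGF2BP1 without passing the threshold with all libraries. SNORD17 (ENSG00000212232), in SNX5, was at 728, 745 and 794 FPKM in siC and at 427, 376, 510.4 and 586 FPKM in siIGF2BP1, with groups apart (log2 change -0.69, SE 0.157, limma adjusted p = 0.0343). SNORD46 (ENSG00000200913) was at 68.3, 69.0 and 102 FPKM in siC and at 36.1, 45.1, 38.5 and 41.5 FPKM in siIGF2BP1. Its groups lay apart, and it missed the threshold with all libraries (log2 change -0.96, SE 0.158, limma adjusted p = 0.0109) and passed without siC replicate 3 (log2 change -0.77, SE 0.0888, limma adjusted p = 0.00272). In the other 6 fits that left out a library its limma adjusted p ran from 0.0241 to 0.0429.

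Among SNORA, SNORA74A (U19), in SNHG4 like SNORA74D, was at 141, 145 and 272 FPKM in siC and at 71.6, 67.9, 75.1 and 101 FPKM in siIGF2BP1 (log2 change -1.18, SE 0.257, limma adjusted p = 0.0290). SNORA23, in IPO7, was at 98.1, 105 and 235 FPKM in siC and at 67.0, 53.0, 67.2 and 78.7 FPKM in siIGF2BP1 (log2 change -1.03, SE 0.310, limma adjusted p = 0.0820, and -0.63 with 0.0261 without siC replicate 3). In both, the groups lay apart and siC replicate 3 was far above the other siC libraries. SNORA12, in CWF19L1, differed in this respect, with 124, 129 and 129 FPKM in siC and 90.1, 70.7, 103 and 113 FPKM in siIGF2BP1 (log2 change -0.45, SE 0.155, limma adjusted p = 0.115). The SD of SNORA12 was 3.03 FPKM in siC and 18.3 FPKM in siIGF2BP1, and its groups lay apart.

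**Figure D2:**
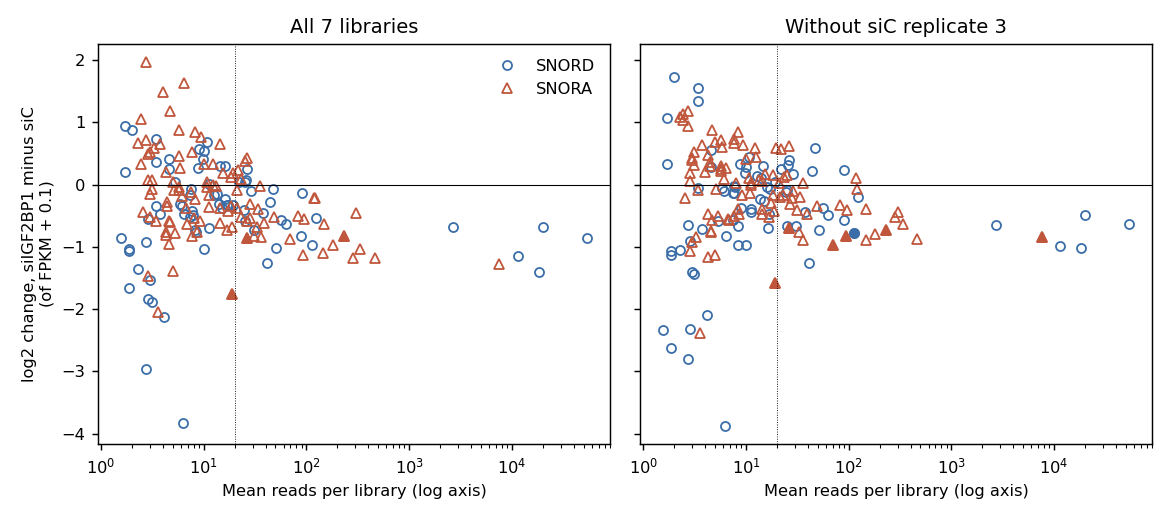
log2 change (siIGF2BP1 minus siC, of FPKM + 0.1) of the 177 members against their mean reads per library (log axis), with all 7 libraries (left) and without siC replicate 3 (right). Blue circles are SNORD, red triangles are SNORA, filled symbols passed the threshold of 0.01, and the dotted line marks 20 reads. Changes spread widely to both sides under 20 reads. They lie below 0 for all 18 members with at least 100 reads in the left panel and for 17 in the right. Of all 11042 genes with as many reads, 6119 and 6389 lie below 0 in these 2 settings.

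Across each family, the median log2 change was -0.40 for the 75 SNORD and -0.33 for the 102 SNORA members, against -0.02 for all genes tested. Without siC replicate 3 the medians were -0.38 and -0.10, against -0.03. A negative log2 change was found for 55 SNORD (73.3%) and 69 SNORA members (67.6%), against 52.9% of all genes tested. Without that library it was found for 53 of 75 SNORD and 55 of 102 SNORA members, against 8085 of all 14839 genes. The SNORA count without that library thus lay near the share of all genes. The siC and siIGF2BP1 values lay apart, with siIGF2BP1 lower, for 17 SNORD (22.7%) and 17 SNORA members (16.7%), against 15.1% of all genes tested. They lay apart with siIGF2BP1 higher for 1 member of each family, SNORD63 and SNORA36C, against 11.9%. Without siC replicate 3, they lay apart with siIGF2BP1 lower for 17 SNORD and 18 SNORA members, both shares below the 29.3% of all genes.

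The members were then described by the number of reads. The limits were set on the mean reads of all 7 libraries, of which siC replicates 1 and 2 were the deepest. They therefore favour members that are high in siC. SNORD14A, for example, held 33, 57 and 19 reads in siC and 21, 22, 11 and 13 in siIGF2BP1. The part of this choice in the changes below was not tested. With a mean of at least 20 reads, 20 of 24 SNORD (83.3%) and 29 of 33 SNORA members (87.9%) had a negative log2 change. Of all genes with as many reads, 53.8% had one. The family medians in this range were -0.58 and -0.55 on the log2 scale, and -0.46 and -0.39 without siC replicate 3. In this range 28 of 57 members (49.1%) had groups apart with siIGF2BP1 lower, against 16.8% of all genes with as many reads, and 28 of 57 without siC replicate 3, against 32.8%. The members with at least 100 reads, 7 SNORD and 11 SNORA, all had a lower mean and were all highest in siC replicate 3. Of all genes with as many reads, 55.4% had a lower mean and 30.2% were highest in that library. The median log2 change of these members was -0.91, or -0.64 without siC replicate 3. In 14 of these 18 the groups lay apart, against 18.5% of all genes with as many reads, and in 14 without siC replicate 3, against 36.4%. Under 20 reads the medians were -0.33 for 51 SNORD and -0.09 for 69 SNORA members, and -0.27 and 0.09 without siC replicate 3.

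**Figure D3:**
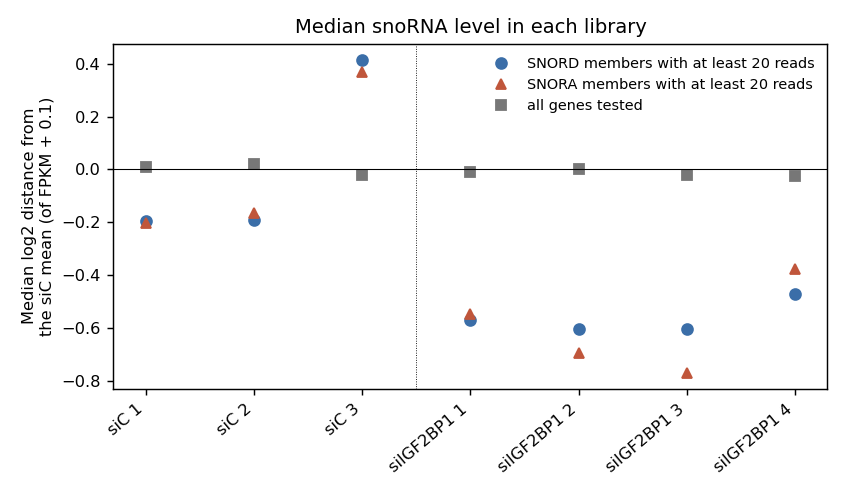
Median log2 distance of each library from the mean of the siC libraries, over SNORD members (circles) and SNORA members (triangles) with at least 20 reads and over all genes tested (squares). Both families are highest in siC replicate 3 and lower in the 4 siIGF2BP1 libraries than in siC. The median of all genes stays near 0, where the TMM scaling of the deposited values tends to hold it.

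The medians were also taken library by library for both families. Over members with at least 20 reads, the median log2 distance from the siC mean was -0.19, -0.19 and 0.42 for SNORD in siC replicates 1 to 3 and -0.57, -0.60, -0.60 and -0.47 in siIGF2BP1 replicates 1 to 4. For SNORA it was -0.20, -0.16 and 0.37 in siC and -0.55, -0.69, -0.77 and -0.38 in siIGF2BP1. For all genes tested it ran only from -0.02 to 0.02, but the TMM scaling of the deposited values tends to hold this median near 0. Over all 177 members, the median SNORD level minus the median SNORA level was 0.77 ± 0.56 (SD, n = 3) in siC and 0.79 ± 0.34 (SD, n = 4) in siIGF2BP1 on the log2(FPKM + 0.1) scale. Over members with at least 20 reads it was 0.93 ± 0.25 and 0.68 ± 0.19, and the groups overlapped in both cases. The difference of the 2 median changes of all members, SNORD minus SNORA, was -0.07 with all libraries and -0.28 without siC replicate 3. Taken from the distances of all members from the siC mean, SNORD minus SNORA was 0.08, 0.02 and -0.10 in siC and -0.08, -0.24, -0.20 and -0.10 in siIGF2BP1, with a pooled SD of 0.08 between libraries. These groups overlapped through siC replicate 3 only. No test was made of this difference, since members are not replicates.

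Other short RNAs were compared with snoRNAs at the same depth of at least 20 reads. The 35 small nuclear RNAs (snRNA) had a median log2 change of -0.73, or -0.53 without siC replicate 3, and 2 were lower at the threshold. The 6 small Cajal body RNAs (scaRNA), which resemble snoRNAs and modify snRNA, had a median of -0.37, the 23 miRNA genes of -0.34 and the 38 genes of the class misc_RNA of -0.20. These medians were -0.19, -0.14 and -0.0018 without siC replicate 3. The 10657 protein-coding genes had a median of -0.03. Length classes were taken over all genes outside the members. They therefore hold the same short RNAs again, among them snRNA, with a median length of 164 bases. The 64 other genes of at least 100 and under 200 bases had a median of -0.61, or -0.32 without siC replicate 3. The 28 SNORA members of that length had -0.54 and -0.37, whereas 397 other genes of at least 200 and under 500 bases had a median of 0.01. The 32 other genes under 100 bases had a median of -0.07, beside -0.40 for the 15 SNORD members of that length, and -0.10 beside -0.12 without siC replicate 3.

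As an example, the spliceosomal RNU1-1 was at 224, 213 and 1259.9 FPKM in siC and at 109, 84.2, 98.5 and 129 FPKM in siIGF2BP1, with siC replicate 3 far above the rest and the groups apart (log2 change -1.91, SE 0.607, limma adjusted p = 0.0955). Without that library RNU1-1 passed the threshold, with a smaller change (log2 change -1.07, limma adjusted p = 0.00588). All snRNA genes together were at 37.1% of siC in RPM, or at 72.6% without siC replicate 3. The snRNA with at least 20 reads thus moved with the groups and with siC replicate 3 as snoRNAs did. So did other genes of at least 100 and under 200 bases with as many reads, but this class includes snRNA and is no separate comparison. Over all 275 snRNA tested, the median log2 change was only -0.08. Of these, 54.2% had a lower mean and 34.5% were highest in siC replicate 3, against 52.9% and 28.5% of all genes tested. The part of library composition in the lower snoRNA values was not tested. RNU1-1 was named after its values were seen.

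**Figure D4:**
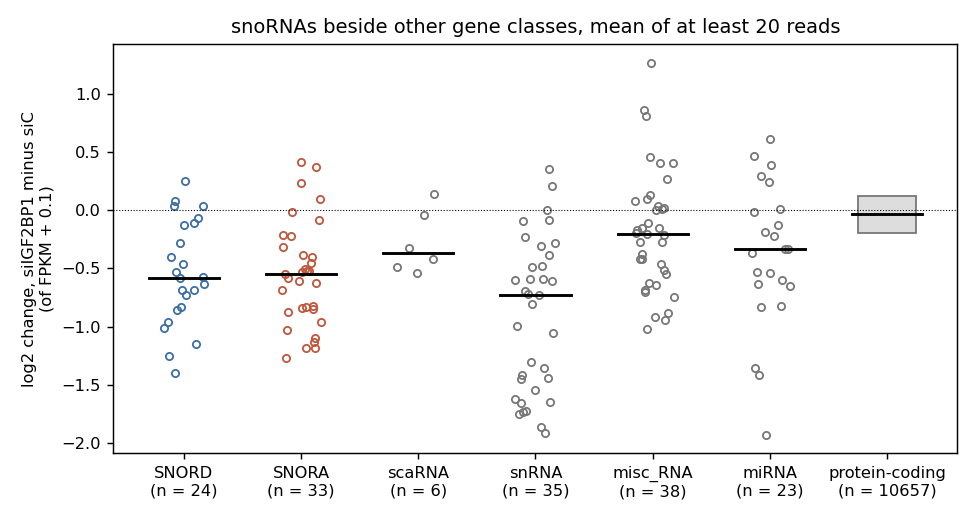
log2 change (siIGF2BP1 minus siC, of FPKM + 0.1) of genes with a mean of at least 20 reads, by class. Points are genes, bars are medians, and the box for protein-coding genes spans the middle of their distribution (lower to upper quartile). SNORD (median -0.58) and SNORA (-0.55) lie between snRNA (-0.73) and protein-coding genes (-0.03).

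Most members lay inside a host gene on the same strand, 68 of 75 SNORD and 96 of 101 SNORA with a GENCODE position. Over the 49 members with at least 20 reads and a host gene tested, the median log2 change was -0.55 for the snoRNA and -0.10 for the host, and 40 of 49 members had a lower change than their host. The median gap of snoRNA minus host was -0.36 for 19 SNORD and -0.54 for 30 SNORA members. The gap without siC replicate 3 was -0.03 for SNORD, with 10 of 19 below their host, and -0.29 for SNORA, with 22 of 30. Of the 40 hosts, DANCR (log2 change -0.43, SE 0.0529, limma adjusted p = 0.00402) and EIF5 (log2 change -0.68, SE 0.0949, limma adjusted p = 0.00612) were lower at the threshold and 0 were higher. Of all genes tested, 2.28% were lower and 1.65% higher. DANCR, a long noncoding RNA, hosts SNORA26, which had a log2 change of -0.96 (limma adjusted p = 0.0173), and EIF5, a translation initiation factor, hosts SNORA28, whose groups overlapped (log2 change -0.53, limma adjusted p = 0.441, and -0.21 without siC replicate 3). SNHG3, the host of SNORA73B, missed the threshold with all libraries (log2 change -0.64, SE 0.118, limma adjusted p = 0.0167) and passed it without siC replicate 3 (-0.49, 0.00089). Across these members the Pearson correlation of the 2 changes was 0.21, as a description, since members of 1 host share it and all share libraries.

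Several hosts held more than 1 of these members. In SNHG17, which encodes the SNORA71 copies, log2 changes were -1.10 for SNORA71D, -0.63 for SNORA71A, -0.50 for SNORA71B and -0.22 for SNORA71C, beside 0.17 for the host. None of the 4 passed the threshold (limma adjusted p = 0.0160 to 0.673). Leaving out siC replicate 3, their changes were -0.89, -0.39, -0.34 and 0.11, and that of the host, 0.26, passed the threshold (limma adjusted p = 0.00831). In SNHG4 the changes were -1.18 for SNORA74A and -0.83 for SNORA74D, beside 0.13 for the host. In ZFAS1, SNORD12C and SNORD12B had -0.83 and -0.53, beside -0.17 for the host. When siC replicate 3 was left out they had -0.57 and -0.20, beside -0.25 for the host, which then passed (limma adjusted p = 0.00861). In RPS12, encoding a ribosomal protein, SNORD101 had -0.58, SNORA33 -0.55 and SNORD100 -0.13, beside -0.22 for the host. The 3 snoRNAs had -0.37, -0.40 and 0.23 without siC replicate 3, all above the -0.46 of the host, which then passed (limma adjusted p = 0.00571). SNORA71A, SNORA71C, SNORA71D and SNORD12B overlap an exon on the same strand, as does SNORA26 in DANCR. How reads were shared between these snoRNAs and the overlapping exons is uncertain. Differences between members of 1 host were not tested. These host groups were named after their values were seen.

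**Figure D5:**
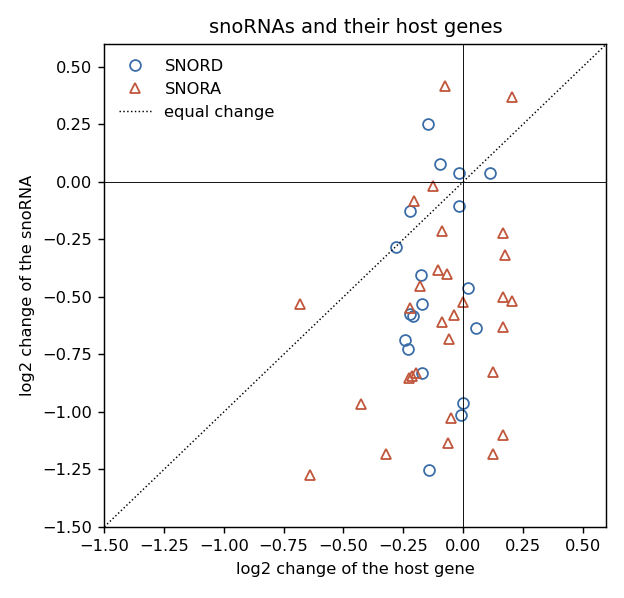
log2 change (siIGF2BP1 minus siC, of FPKM + 0.1) of the snoRNA against that of its host gene, for 49 members with at least 20 reads (circles SNORD, triangles SNORA). Below the dotted line of equal change lie 40 of 49 members, and hosts range from -0.68 to 0.21.

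Genes for proteins that bind, assemble or use snoRNAs were examined next. All 30 genes listed were tested, and 1 was lower and 0 higher at the threshold, against 2.28% and 1.65% of all genes tested. At limma p values under 0.05 before adjustment, 4 were lower and 2 higher, against 14.8% and 11%. The median log2 change of the 30 genes was -0.02. The lower gene was IMP3, a protein of the U3 particle, at 26.9, 27.8 and 28.4 FPKM in siC and at 17.1, 18.3, 17.7 and 18.9 FPKM in siIGF2BP1. Its groups lay apart, and the change held without siC replicate 3 (log2 change -0.62, SE 0.0583, limma adjusted p = 0.00144, and -0.60 with 0.00106). This gene is not the RNA-binding protein IGF2BP1, which is also called IMP1, nor its relative IGF2BP3.

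Of the core proteins of box C/D particles, none passed the threshold. Fibrillarin (FBL), the methyltransferase, had a log2 change of 0.22 (limma adjusted p = 0.164), NOP56 of -0.18 (0.573), NOP58 of -0.01 (0.931) and SNU13 of -0.22 (0.0981). Nor did those of box H/ACA particles, with dyskerin (DKC1), the pseudouridine synthase, at 0.02 (0.939), NHP2 at 0.05 (0.896), NOP10 at -0.47 (0.140) and GAR1 at -0.14 (0.696). Without siC replicate 3, DKC1, NHP2 and GAR1 changed sign (-0.12, -0.18 and 0.08), NOP10 was at -0.28, FBL at 0.14 and NOP58 at -0.09, none of which passed the threshold. Without siC replicate 3, 6 of the 30 genes were lower and 0 higher, among them NOP56 (log2 change -0.39, limma adjusted p = 0.00886) and SNU13 (-0.28, 0.00669), against the 6.67% lower of all genes tested. NOP56 was at 75.4, 73.5 and 47.5 FPKM in siC and at 56.2, 51.8, 58.7 and 60.4 FPKM in siIGF2BP1, so that siC replicate 3 alone lay below the siIGF2BP1 libraries.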

How the data were processed

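Total RNA was depleted of ribosomal RNA by the authors and sequenced as directional libraries. Per the labels and methods, the authors clipped reads with cutadapt 1.14, aligned them to GRCh38 with HISAT2 2.1.0, counted them with featureCounts 1.5.3 and normalized with edgeR 3.18.1. Strand and multi-mapping settings are not given in the sources used here. The deposited table holds FPKM per library, gene lengths, and columns of the authors' own comparison (log2 fold changes, p-values, FDR), which were not used. Multiplied by length, 100% of FPKM values came out as whole reads (within 0.01), which gave reads per gene. No sample column lay outside the labels.

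Genes averaging at least 1 FPKM were tested by limma 3.58.1 in R 4.3.3 on log2(FPKM + 0.1), fitting a trend of variance with level and no covariates. Tests were two-sided, Benjamini-Hochberg adjusted over all genes, at a threshold of 0.01. Adding 0.1 shrinks changes of low genes, but values of 0 in some libraries can enlarge them on this scale. SNORD124, with 0 in siIGF2BP1 replicate 4, had a siIGF2BP1 mean of 92.8% of siC and a log2 change of -0.92. The fit was tested on simulated data. The labels do not say whether replicates were separate cultures, so p-values measure the spread between these libraries. Positions, hosts and symbols came from GENCODE 44 by gene identifier, and member lengths equalled the deposited ones for 75 of 75 SNORD and 101 of 101 SNORA found. Members and lists were chosen with earlier results of these data known. Named snoRNAs are those with a role in processing of ribosomal RNA, the 5 most abundant of each family, those past the threshold, the 3 smallest p-values of a family with none, and, by count, SNORD115 and SNORD116. Also named are IGF2BP1, the core snoRNP proteins and genes of the 30-gene list past the threshold. Alternatives were other pseudocounts, filters, scalings and weights, voom on recovered reads, a replicate block and leaving out each library. The host gene and sequence of 1 named snoRNA are not reported here.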

Additional observations from a re-analysis of the deposited data

Results flagged for a closer look

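Of 36 values examined for a library far from the others of its group, 1 was set apart, against 1.8 by chance at this limit. The median log2(FPKM + 0.1) of the 33 SNORA members with at least 20 reads was 3.75 in siIGF2BP1 replicate 3, below 4.01, 4.05 and 4.06 in replicates 1, 2 and 4. The gap made up 0.833 of the range of the group, just above the critical value for 4 libraries. In siC the same median was 3.84, 4.10 and 4.58, so that the groups overlapped.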

How the results depend on the processing

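The number of lower SNORD members at the threshold, 0, became 1 with a mean of at least 5 FPKM, with a mean of at least 20 reads and with voom (against 3.76%, 3.32% and 2.36% of all genes tested), 6 with array weights (against 11.6%) and 8 with a threshold of 0.05 (against 6.81%). The number of lower SNORA members, 3, became 0 without a filter (against 0.6%) and with the replicate block (against 0%), 1 with quantile normalization (against 1.75%) and with voom, 2 without the trend (against 1.83%), 4 with a mean of at least 20 reads, 10 with array weights and 8 with a threshold of 0.05. Leaving out 1 library gave 0 to 1 lower SNORD and 0 to 6 lower SNORA members, with the highest counts without siC replicate 3. Without any of the other 6 libraries, 0.357% to 0.735% of all genes were lower. No setting gave a higher member of either family. With a mean of at least 20 reads the median log2 change was -0.58 for SNORD and -0.55 for SNORA, and with voom it was -0.27 and -0.10. It was -0.31 and -0.19 with a pseudocount of 1, -0.31 and -0.16 with array weights, and -0.40 and -0.19 with the replicate block. Leaving out 1 library moved the median from -0.51 to -0.35 for SNORD and from -0.44 to -0.10 for SNORA. The difference of the medians, SNORD minus SNORA, was 0.19 with a mean of at least 5 FPKM and below 0 in each other setting, with -0.17 with voom, -0.21 with the replicate block and -0.28 to -0.0071 when 1 library was left out. SNORD13 turned to 0.49 with array weights, 0.19 with voom and, when 1 library was left out, ran from -0.62 (without siC replicate 1) to 0.59 (without siC replicate 3).

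Over the 16 named snoRNAs, 237 of 287 alternative values kept their direction and side of the threshold, 19 came to pass it, 28 no longer passed and 3 reversed. Deviations from the group means had correlations of -0.03, -0.12 and -0.11 between same-numbered libraries. Between differently numbered libraries these ran from -0.17 to 0.20. With so few libraries per group, this cannot decide whether replicate numbers pair the libraries. The replicate block gave 0 calls over all genes in either direction. Array weights were estimated gene by gene, a choice made after seeing that the default estimate did not converge. Whether the number of reads limits the calls was not tested. Intervals for counting error were not added, since the spread between libraries includes it.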
